A study of Arabidopsis thaliana with 6 samples.

Results

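Transcript levels in Arabidopsis thaliana shoot apices were compared between plants harvested 3 h after brushing with 17-β-estradiol and untreated plants of the same line. The comparison used 2 of the 6 arrays of the study, taken by their titles, and the probes that were well above background on both. These were 30757 of 43603 probes (70.5%). Of them 26145 had a gene name, and they gave 19289 genes, 5291 of them read by several probes.

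Each array held RNA pooled from 30 plants of 21 days, and the tissue was labelled shoot apical meristem and juvenile leaves. All plants carried XVE, a hybrid regulator of bacterial, viral and oestrogen receptor parts that turns on a gene behind its operator when estradiol is present. The 0 h and 3 h plants also carried AMY3C-EY (the labels give nothing on its product), and the 3 h plants had received 20 µM estradiol on the meristem by paintbrush. The other arrays were the same line at 1 h and 6 h of estradiol, the same line 6 h after DMSO, the solvent, and plants with XVE alone 6 h after estradiol. The promoter that drives XVE and the number of independent lines are not given in the sources used here. At 3 h there was neither a solvent sample nor one of XVE alone. Estradiol, the construct, the brushing and the time elapsed therefore cannot be told apart in this comparison. Each group was 1 array, and this number limits the precision: the differences below carry no replicate check and no test.

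Jasmonates are lipid-derived hormones of wounding, touch and defence. Their active form brings about the destruction of JAZ proteins, which otherwise hold back the transcription factor MYC2 and its relatives. The genes for jasmonate synthesis, for the JAZ repressors and for the enzymes that inactivate the hormone are themselves induced by this pathway. Abscisic acid, the hormone of water shortage, raises dehydrins and other protective proteins that are also known from cold. AMY3 encodes a plastid α-amylase, one of the enzymes that break down starch.

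As in the authors' table, a level here is a log2 signal set against the array's 75th percentile, and differences are 3 h minus 0 h on that scale. The 75th percentile was 555.1 units at 0 h and 1435.4 at 3 h, against 341.6 on the dimmest array, that of XVE alone, and 71.1% and 77.5% of spots were well above background. The 4 arrays of the time course lay on 1 slide and both 6 h controls on the other. On the 1 h and 3 h arrays the scanner software had divided signals by a smooth surface across the array, with an effect between -0.16 and 0.19 (5th to 95th percentile, log2) at 3 h, and on the 0 h array it had not. Among probes printed 5 times on an array, the median SD between spots was 0.208 at 0 h and 0.154 at 3 h, which covers the spots and not the plants. Meristem markers were present: STM stood at a level of -2.79 at 0 h and -3.29 at 3 h, and CLV3 at 0.68 and 0.16. WUS and CUC1 were not well above background on both arrays. Of 6 root markers PLT1, EXPA7 and RHD6 were not measured, whereas WOX5, COBL9 and PRP3 were. In pooled tissue, fewer cells of a type and less RNA per cell cannot be told apart.

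At 3 h, 432 genes (2.24%) were at least 2-fold higher than at 0 h and 984 (5.1%) at least 2-fold lower, with a median difference of -0.055 over all genes and quartiles of -0.38 and 0.257. Against the same 0 h array, 1 h had 1140 genes (6.13%) higher and 1136 (6.11%) lower by 2-fold or more, and 6 h had 484 (2.52%) and 531 (2.76%). Set directly against 1 h, 408 genes (2.15%) were higher at 3 h and 1001 (5.28%) lower. Against 0 h, at 4-fold or more, 54 were higher and 72 lower. At 8-fold or more, 13 were higher and 4 lower. Another 1514 genes were well above background only at 3 h, the brighter array, and 158 only at 0 h. By the bounds explained under processing, 62 of the 1514 were at least 2-fold higher and all 158 at least 2-fold lower. The lowest level counted as well above background was -4.35 at 0 h and -5.75 at 3 h, so the 158 reach such a bound more easily. A gene bright at 0 h passes the 2-fold bound whenever its 3 h value is at or below -5.75. That all 158 passed was thus largely set by the filter and is no result about these genes.

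**Figure D1:**
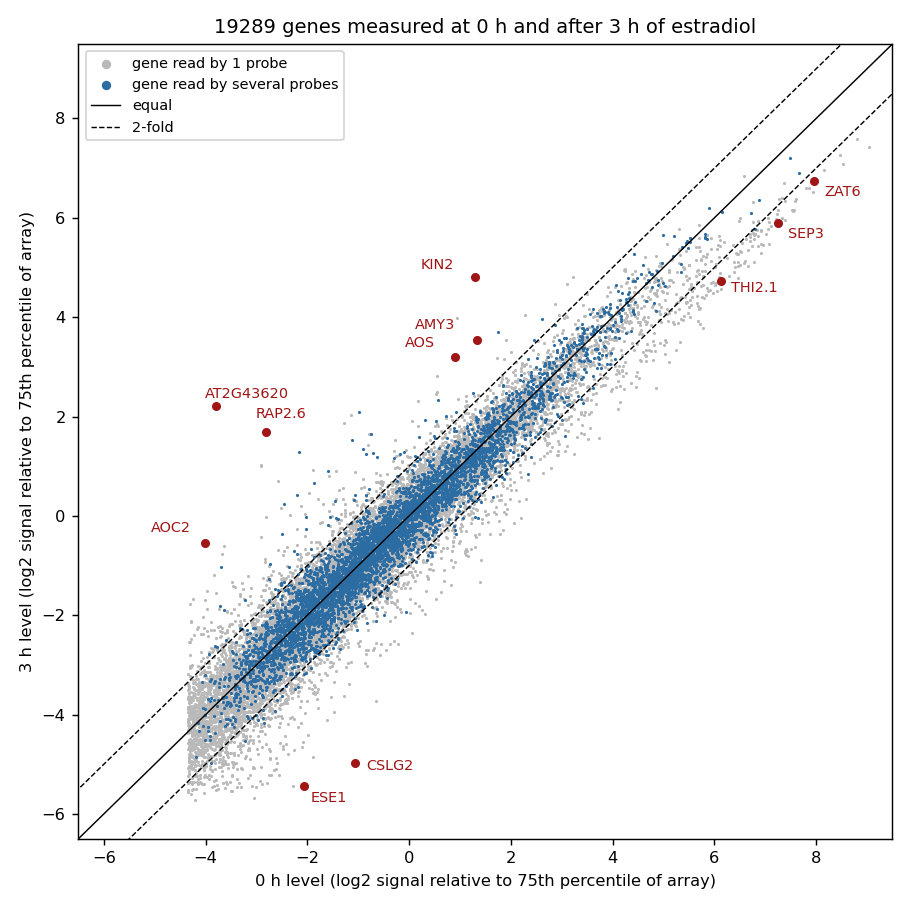
Level of each of 19289 genes on the 3 h array (vertical axis) against the 0 h array (horizontal axis), both as log2 signal over the array's 75th percentile. Grey points are genes read by 1 probe and blue points genes read by several; the solid line marks equal levels, the dashed lines 2-fold, and red points are named genes. AT2G43620 lies farthest above the upper line, at -3.79 and 2.22, and a band of bright grey points lies along the lower line.

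The chitinase family gene AT2G43620 had the largest difference. Its level was -3.79 at 0 h and 2.22 at 3 h, a difference of 6.01, or 64.5-fold. On the other arrays it was 2.24 at 1 h, 2.61 at 6 h, 1.42 with XVE alone and 2.6 with DMSO, so the 0 h array alone was low. RAP2.6, an ERF transcription factor of wounding and stress, was at -2.80 at 0 h and 1.68 at 3 h, a difference of 4.48. It was higher still at 1 h (3.5) and lower at 6 h (0.11), with XVE alone (0.07) and with DMSO (1.18).

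The 20 genes farthest above 0 h differed by between 2.65 and 6.01. Their 0 h levels ran from -4.01 to 1.29 and their 3 h levels from -1.04 to 4.82, and 13 of them were higher at 1 h than at 3 h. Beside AT2G43620 and RAP2.6 they were LTI30, JOX2, KIN2, CORI3, AOC2, FAMT, BGLU25, RD20, KIN1, AT4G30650, NAC019, AT1G30720, AT5G64120, AT2G34930, AT2G16630, AT2G32190, AT2G18690 and RD29A. FAMT, a methyltransferase gene, was at -2.58 at 0 h and 0.70 at 3 h. BGLU25, a β-glucosidase gene, was at -1.14 and 2.03, and its 3 h level was above the 1.51 of 1 h and the 1.60 of 6 h. AT5G64120, which encodes peroxidase 71, was at -1.88 and 0.93, after 2.70 at 1 h.

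Genes of jasmonate synthesis were higher at 3 h in 5 of 12 measured cases and at least 2-fold lower in none, with a median difference of 0.80 (all genes, 2.24% higher and a median of -0.055). At 6 h the list's median against the same 0 h array was 0.57 with DMSO and 0.95 with XVE alone. LOX2, the plastid lipoxygenase that starts the pathway in leaves, was at -1.87 at 0 h and 0.66 at 3 h, a difference of 2.53. With 0.27 at 1 h and 0.85 at 6 h, its level was higher at each later time. AOS, the allene oxide synthase, was at 0.91, 3.61, 3.19 and 1.46 at 0, 1, 3 and 6 h. Of its partner enzymes, the allene oxide cyclases, AOC2 was at -4.01 and -0.55 (difference 3.45), AOC1 at -2.74 and -0.97 (1.76), and AOC3 at -2.05 and -0.66 (1.40). AOC4 differed by 0.57. Whether a probe reads more than 1 of these related genes was not tested. AOC3 was at 0.98, under 2-fold, with the normexp background correction. LOX4 (0.66), ACX1 (0.94), OPR3 (0.39) and JAR1, which makes the active conjugate (0.33), stayed within 2-fold, as did LOX3 (-0.45) and OPCL1 (-0.54).

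Of 11 measured JAZ repressor genes 5 were at least 2-fold higher and none lower (2.24% and 5.1% of all genes), with a median difference of 0.89. JAZ9 was at 1.90 at 0 h and 3.54 at 3 h, JAZ12 at 0.53 and 1.92, JAZ5 at -0.66 and 0.68, JAZ2 at -1.16 and 0.07, and JAZ1 at 1.13 and 2.24. The remaining 6 ranged from -0.30 (JAZ11) to 0.89 (JAZ10). All 11 were lower at 3 h than at 1 h. This order was not particular to JAZ genes: it held for 24 of 26 photosynthesis genes and 10 of 11 sugar starvation genes, whereas 15 of 16 replication genes were higher at 3 h. The median JAZ difference from the same 0 h array was 1.76 at 1 h and 0.66 at 6 h. On the 6 h controls it was 1.0 with DMSO and 1.24 with XVE alone. JAZ5 was at 0.97 when differences were centred by position on the array, and JAZ2 at 0.92 with the normexp correction.

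Of 7 measured genes for enzymes that remove jasmonate 4 were at least 2-fold higher (2.24% of all genes), with a median of 1.76, and 3 more were dim at 0 h and bright at 3 h. The median was the difference of ST2A, and it was 0.28 with the normexp correction. On the 6 h controls the list's median against 0 h was 1.11 with DMSO and 1.23 with XVE alone. JOX2 encodes a jasmonate hydroxylase, and its level was -2.92, 2.81, 1.0 and 0.68 at 0, 1, 3 and 6 h. Its relatives JOX4 and JOX3, not well above background at 0 h, were at least 29.7-fold and at least 19.3-fold higher, with 3 h levels of 0.54 and -0.08. ILL6 and IAR3, hydrolases of jasmonate conjugates, were at -1.80 and -1.30 at 0 h and at 0.34 and 0.55 at 3 h, differences of 2.14 and 1.85. ST2A, a sulfotransferase of hydroxyjasmonate, was at -4.30 and -2.54, a difference of 1.76. CYP94C1, an oxidase of the active conjugate, had a 3 h level of -2.19 and was at least 4.47-fold higher than at 0 h, after 2.25 at 1 h. CYP94B3 (0.91), JOX1 (0.20) and CYP94B1 (-0.21) stayed within 2-fold. Over the alternative scalings, filters and corrections, however, JOX1 ran from 0.1 to 2.08 and CYP94B3 from 0.04 to 1.02.

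Of 9 measured jasmonate transcription factor genes, 2 stood 2-fold or more above 0 h (2.24% of all genes) and 1 as far below (5.1%). The median of this list was 0.48. NAC019, like RAP2.6, was low only at 0 h: its level was -3.63, -0.55, -0.61 and 0.94 at 0, 1, 3 and 6 h, 0.03 with XVE alone and 1.44 with DMSO. ABR1, a close relative of RAP2.6, was dim at 0 h and at -1.32 at 3 h, at least 8.17-fold higher. MYC2 (0.70), MYC3 (0.48), JAM1 (0.94) and JAM2 (0.42) stayed within 2-fold. ORA59, which acts where jasmonate and ethylene meet, was at -4.20 at 0 h and -5.73 at 3 h, near the lowest 3 h level counted as well above background, -5.75.

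Of the late outputs, proteins made once the hormone has acted, 5 of 6 measured genes were higher at 3 h than at 1 h. All 11 JAZ genes were lower, whereas 10 of 11 flavonoid genes and 15 of 16 replication genes were also higher. THI2.1, among the 5, was at 6.12, 4.23 and 4.73 at 0, 1 and 3 h, so below 0 h at both later times. Of members dim at 0 h, NATA1 and RNS1 were higher at 3 h than at 1 h, and TAT3 and TPS04 were lower. VSP1, a vegetative storage protein gene read by 4 probes, was at -0.71, -0.50, 1.26 and 1.93 at 0, 1, 3 and 6 h, and at 1.42 with XVE alone and 2.25 with DMSO. VSP2 was at 0.56, 0.88, 2.34 and 2.80 in the order of time. Both therefore stood near the 0 h level at 1 h and above it at 3 h. CORI3, a cystine lyase gene, was at -2.17, 0.81 and 1.3 at 0, 1 and 3 h, a difference of 3.46. Of the 6 measured members, 3 stood 2-fold or more above 0 h at 3 h (2.24% of all genes) and 1 as far below (5.1%). The list's median at 3 h was 1.1, beside 0.18 at 1 h and 1.3 at 6 h against the same 0 h array.

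The largest bounds belonged to 2 genes of this group. NATA1, an acetyltransferase of the ornithine pathway, was dim at 0 h and at 1.42 at 3 h, at least 54.7-fold higher, after -1.37 at 1 h. RNS1, a secreted ribonuclease induced by wounding, was dim at 0 h and at 1.19 at 3 h, at least 46.7-fold higher. PRN, which encodes a pirin and belongs to no list, was at 0.25 at 3 h and at least 24.3-fold higher. The tyrosine aminotransferase gene TAT3 was at least 6.12-fold higher. ARGAH2, an arginase gene of the same arginine metabolism as NATA1, was at -1.59, -0.15, 0.91 and -0.02 at 0, 1, 3 and 6 h, its highest level on the 4 arrays of the time course. PDF1.2 was not measured on both arrays. THI2.1, a thionin gene, was lower, at 6.12 and 4.73, by 1 probe; with all its probes, dim ones included, the difference was 0.50.

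**Figure D2:**
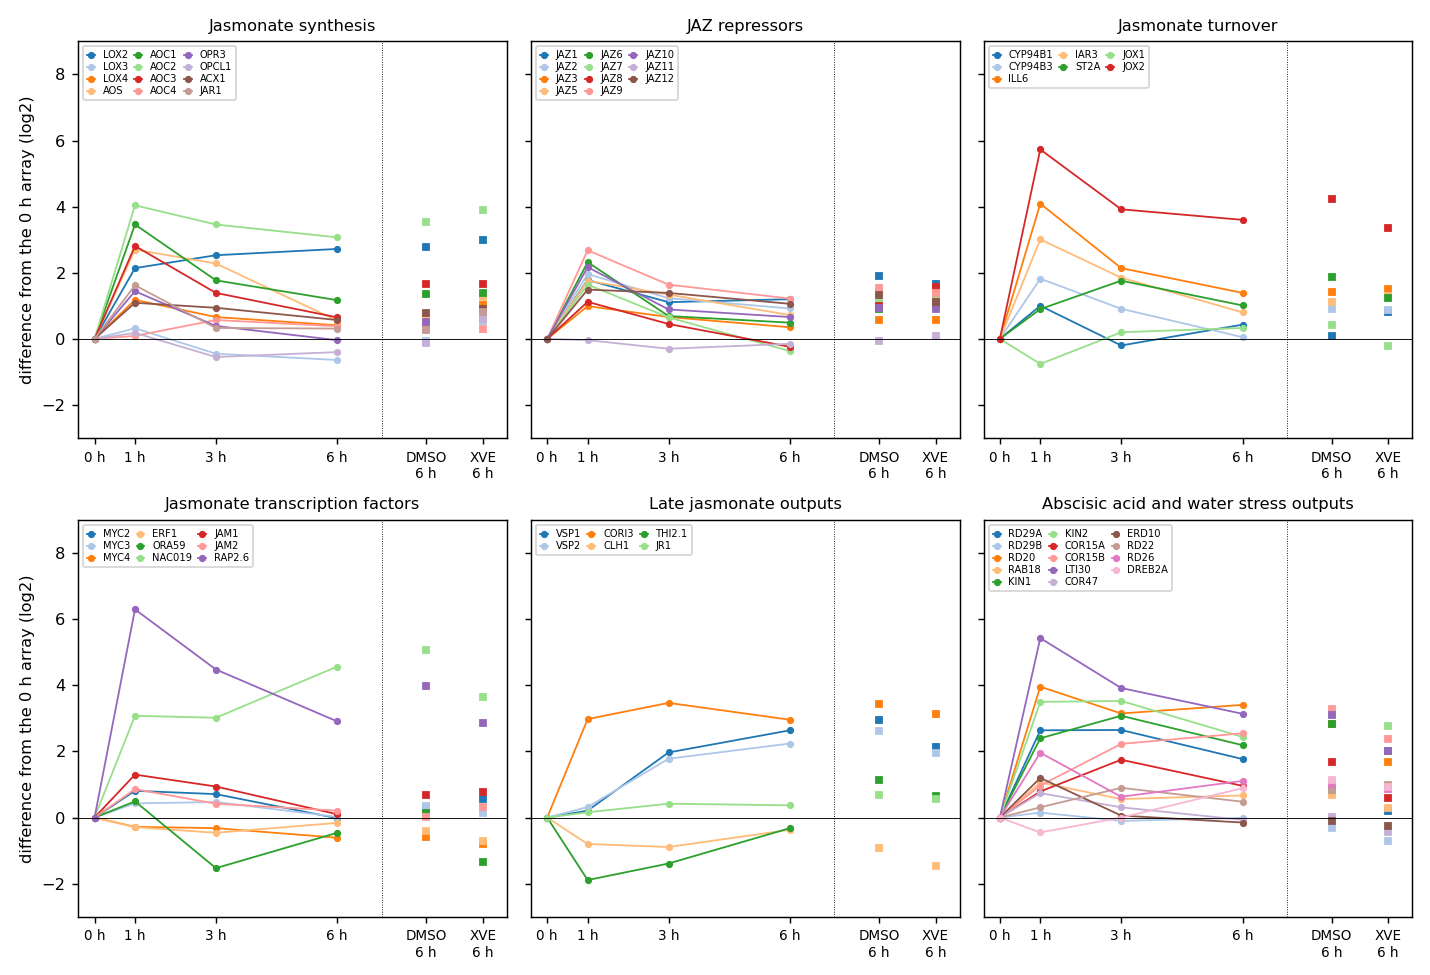
Difference from the 0 h array (log2, vertical axis) of each measured member of 6 gene lists at 0, 1, 3 and 6 h of estradiol (circles joined by lines) and on the DMSO and XVE arrays at 6 h (squares, other slide); each colour is 1 gene and every point is 1 array. The JAZ repressors lie lower at 3 h than at 1 h in 11 of 11 cases, and VSP1 and VSP2 leave the 0 h level between 1 h and 3 h.

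Output genes of abscisic acid and water stress were at least 2-fold higher in 7 of 14 cases and lower in none (2.24% and 5.1% of all genes). The median difference was 1.32, and at 6 h it was 1.09 with DMSO and 0.89 with XVE alone against the same 0 h array. LTI30, a dehydrin gene, was at -2.90, 2.53, 1.02 and 0.24 at 0, 1, 3 and 6 h. KIN2, of the small cold-induced KIN proteins, was at 1.29 at 0 h and 4.82 at 3 h (difference 3.52), and its tandem copy KIN1 at -0.98 and 2.1 (3.08), with its 2 probes at 2.04 and 4.11. RD20, a caleosin gene, was at -1.28 and 1.87, and RD29A at -1.13 and 1.52. RD29A was at 0.64 at 6 h, -0.93 with XVE alone and -0.33 with DMSO, so both arrays of the other slide lay within 2-fold of the 0 h level. COR15A, which protects chloroplast membranes in cold, was at 2.29, 3.08, 4.04 and 3.25 at 0, 1, 3 and 6 h. Its copy COR15B was at -0.80, 0.17, 1.43 and 1.75. COR15A and KIN1 had their highest level of the time course at 3 h, by less than 2-fold over the next.

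The other members and most signalling genes differed less. RD22 (0.89), RD26 (0.64), RAB18 (0.56), COR47 (0.31), ERD10 (0.05), DREB2A (0.00) and RD29B (-0.11) stayed within 2-fold. Of 11 measured genes of abscisic acid synthesis, breakdown and signalling, 1 was at least 2-fold higher (2.24% of all genes): ABI1, a phosphatase that restrains the pathway, at -1.05 and 0.29. The median of this list was -0.05, and NCED3, whose enzyme limits abscisic acid synthesis, was dim at 0 h with no bound above 1. The cold regulators CBF1 (0.07), CBF2 (-0.51) and CBF3 (-0.29), which act on COR15A and RD29A in the cold, stayed within 2-fold.

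**Figure D3:**
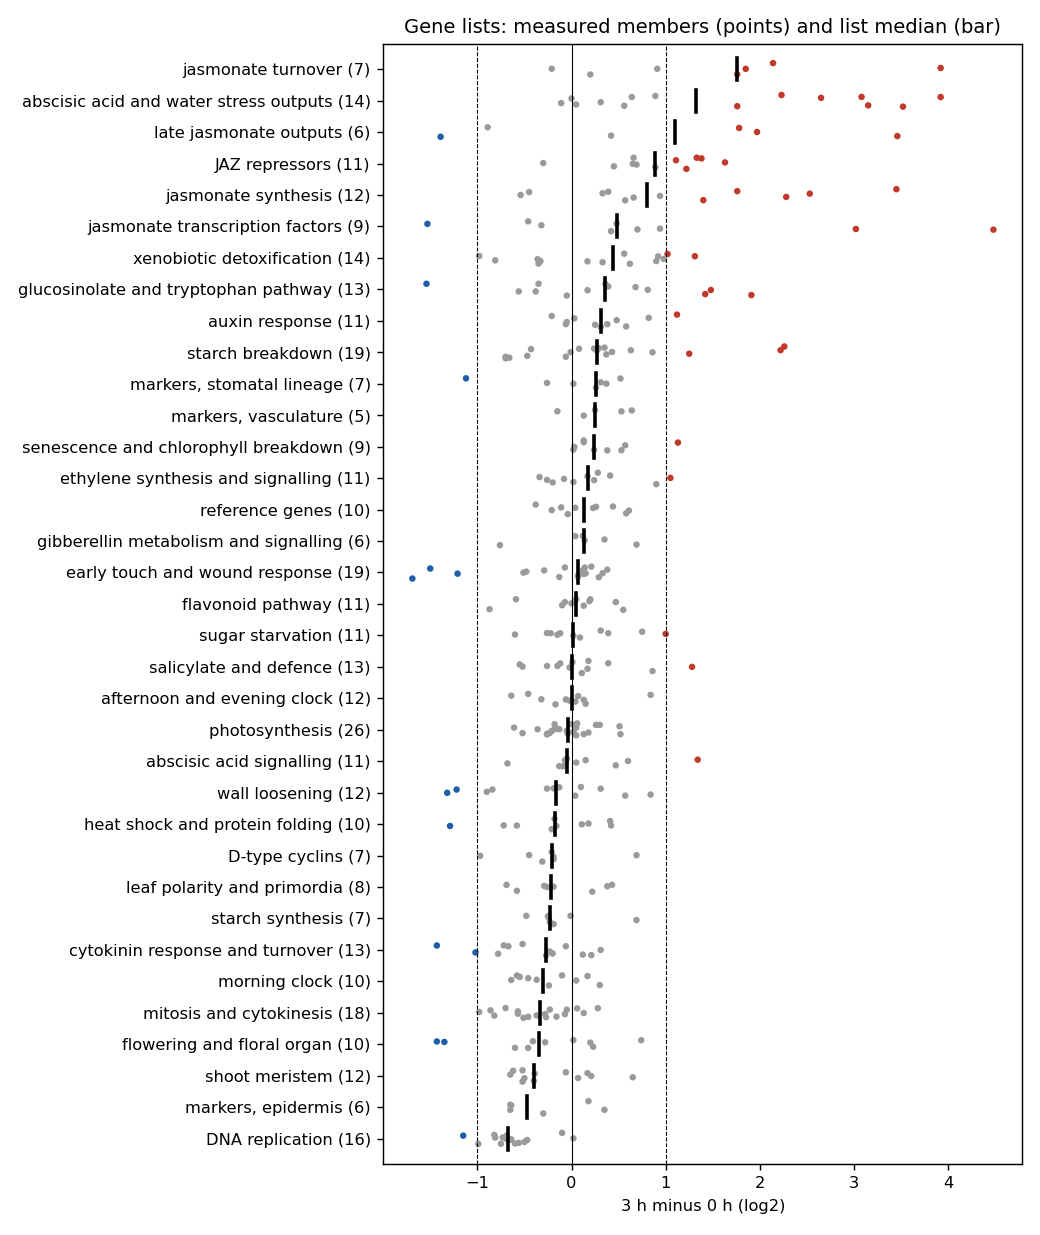
Difference between 3 h and 0 h (log2, horizontal axis) of the measured members of each gene list with at least 5 (number in brackets), sorted by the list's median, which the black bar marks. Red points are at least 2-fold higher, blue at least 2-fold lower and grey between; vertical jitter has no meaning. Jasmonate turnover has the highest median here (1.76, but 0.28 with the normexp correction, under the 1.32 to 1.48 of the water stress outputs over all settings tried), and DNA replication the lowest (-0.67).

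AMY3 was higher at 3 h. Its level was 1.33, 2.48, 3.55 and 3.87 at 0, 1, 3 and 6 h, and 2.47 with XVE alone and 2.52 with DMSO at 6 h. The difference at 3 h was 2.22, or 4.65-fold, by 1 probe. The 3 h and 6 h levels of the estradiol-treated AMY3C-EY plants were thus the highest of the 6 arrays. Whether the probe also reads the transcript of the construct was not tested.

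Of the other starch breakdown genes, 2 were at least 2-fold higher and none of 19 lower (2.24% and 5.1% of all genes), with a median of 0.27. At 6 h the list's median against the same 0 h array was 0.83 with estradiol, 0.75 with DMSO and 1.13 with XVE alone. BAM5, a β-amylase gene, was at -0.91, -0.07, 1.35 and 0.77 at 0, 1, 3 and 6 h, by 2 probes. SEX1, the glucan water dikinase that opens the starch granule to attack, was at 0.42, 0.32, 1.67 and 2.25. BAM1 and BAM3, the main plastid β-amylases, differed by 0.37 and -0.06. The plastid maltose exporter gene MEX1 (0.86), the phosphorylase gene PHS1 (0.63) and the debranching enzyme gene ISA3 (0.43) stayed within 2-fold, as did all 7 measured genes of starch synthesis, from -0.48 (SBE2.2) to 0.69 (APL3). In the sugar starvation list 1 of 11 was 2-fold higher (2.24% of all genes), TPS10 at -2.18 and -1.17, and it was not with the normexp correction (0.52). The starvation marker DIN6 was at -1.31, 1.44 and -1.0 at 0, 1 and 3 h, and DIN1 at -3.12, -0.03 and -3.24, so both were high at 1 h and not at 3 h.

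Genes that make tryptophan and indole glucosinolates were higher in part. ASA1, whose enzyme opens the tryptophan branch, was at -0.90, 1.15, 0.58 and 0.26 at 0, 1, 3 and 6 h. CYP83B1, which acts on the indole aldoxime, was at 0.54, 2.47, 2.45 and 1.5, a difference of 1.91 at 3 h. CYP79B2, which makes that aldoxime, was at -1.60 at 0 h and -0.18 at 3 h, a difference of 1.42 that was 0.98 with the normexp correction and with the brightest probe. Over the 13 measured genes of the list 3 were higher and 1 lower (2.24% and 5.1% of all genes), with a median of 0.36. The lower one was CYP79B3, a close relative of CYP79B2, at 4.65 and 3.12 by 1 probe.

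Detoxification genes were higher in 2 of 14 cases (2.24% of all genes), with a median of 0.44. GSTU5 was at 2.0 and 3.31, and GSTU7 at -2.64 and -1.63, a difference of 1.02 that was 0.59 with the normexp correction. Among all tau and phi glutathione transferases, 5 of 27 were higher and 1 lower (2.24% and 5.1% of all genes), but 2 of the 5, GSTU5 and ERD9, and not the lower one stayed 2-fold apart under every alternative scaling, filter and correction that measured them. The largest difference was that of ERD9, read by 3 probes, with levels of -0.75, 1.64 and -0.38 at 0, 3 and 6 h. In the salicylate list PR2, a β-glucanase gene, was at -3.71 and -2.43. It alone of 13 was 2-fold higher (2.24% of all genes), but at 0.30 with the normexp correction. ICS1, which makes salicylate (-0.52), PAD4 (0.18), EDS1 (0.11) and NPR1 (0.17) stayed within 2-fold. Of 11 auxin response genes 1 was higher (2.24% of all genes), IAA5 (1.12), and with the normexp correction it was at 0.11.

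Among transcription factor families, 5 of 56 measured WRKY genes were higher and 7 lower (2.24% and 5.1% of all genes), with a median of -0.07. Under every alternative 1 of the 5, WRKY25, and 4 of the 7 stayed 2-fold apart. WRKY25 was at -3.47, -0.37, -1.33 and -1.90 at 0, 1, 3 and 6 h. WRKY48 was at -4.01, -0.94, -1.69 and -3.10 in the same order, and its difference of 2.32 was 0.86 with the normexp correction. WRKY28 was at -3.72 and -1.81 at 0 h and 3 h, a difference of 1.90 that was 0.83 with the normexp correction. WRKY72 was lower, at 2.2 at 0 h and -0.04 at 3 h. MYB15, a regulator of lignin and cold responses, was at -0.63, 2.03 and 1.18 at 0, 1 and 3 h, 1 of 3 MYB genes higher among 76 (3.95%) while 5 were lower (6.58%). NAC genes were higher in 1 of 64 cases (1.56%), NAC019, and lower in 3 (4.69%), so both families lay near the shares of all genes. Cytochrome P450 genes were higher in 10 and lower in 10 of 148 (6.76% each), and 5 and 7 of these stayed 2-fold apart under every alternative. CYP81D1 (2.65), CYP83B1 (1.91) and CYP82G1 (1.78, but 0.43 with the normexp correction), which makes a volatile homoterpene, lay at the upper end, and CYP705A2 (-2.03) and CYP79C2 (-1.77) at the lower. CYP705A2 was at -5.38 at 3 h, under the lowest level counted as well above background at 0 h, -4.35. PUB23, a U-box ubiquitin ligase gene of stress responses, was at -0.14 and 1.11, whereas 5 of 21 U-box genes were lower (5.1% of all genes), led by PUB15 (-2.38) and PUB24 (-1.96). The 3 h level of PUB15, -4.98, also lay under -4.35.

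Of 16 measured replication genes 1, FAS1, was at least 2-fold lower (6.25%, beside 5.1% of all genes) and none higher. The values of 15 lay below 0 h, as did those of 54.6% of all genes. The median was -0.67. Against the same 0 h array it was -0.89 at 1 h, -0.09 at 6 h, -0.31 with DMSO and -0.2 with XVE alone. The MCM genes encode the helicase that opens DNA, and their differences ran from -0.99 (MCM2) to -0.50 (MCM3). MCM5 was at 1.83, 0.88, 1.02 and 1.66 at 0, 1, 3 and 6 h. FAS1, a subunit of the chromatin assembly factor, was at 0.72 and -0.43, a difference of -1.15 that was -0.93 when centred by position on the array. PCNA1, the polymerase clamp (-0.69), CDC6 (-0.69), ETG1 (-0.73) and ICU2, a polymerase subunit (-0.65), stayed within 2-fold, and RNR1 was at 0.02. All 16 were lower at 3 h than at 6 h, and 15 were higher at 3 h than at 1 h. Across the scalings and filters tried, the list's median lay between -0.69 and -0.61.

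Genes of mitosis and of the D-type cyclins differed less. Of 18 mitosis genes none reached 2-fold, with a median of -0.33, from -0.98 (CDC20.1) to 0.28 (CDKB2;2), and KNOLLE, the syntaxin of the cell plate, was at 1.31 and 0.49. The D-type cyclin genes had a median of -0.21, from CYCD1;1 (-0.97) to CYCD4;1 (0.69). Meristem genes had a median of -0.40, and none of 12 reached 2-fold: KNAT6 (-0.65), KNAT2 (-0.62), CLV3 (-0.52), ERECTA (-0.52) and STM (-0.50) were the lowest and CUC3 the highest (0.65). The direction of CUC3 and CYCD4;1 depended on the processing: over the alternatives they ran from -0.68 to 0.82 and from -0.2 to 0.82. Epidermal markers ran from -0.65 (ATML1) to 0.35 (GL1), with a median of -0.47. Whether the share of dividing or epidermal cells in the samples differed was not tested.

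**Figure D4:**
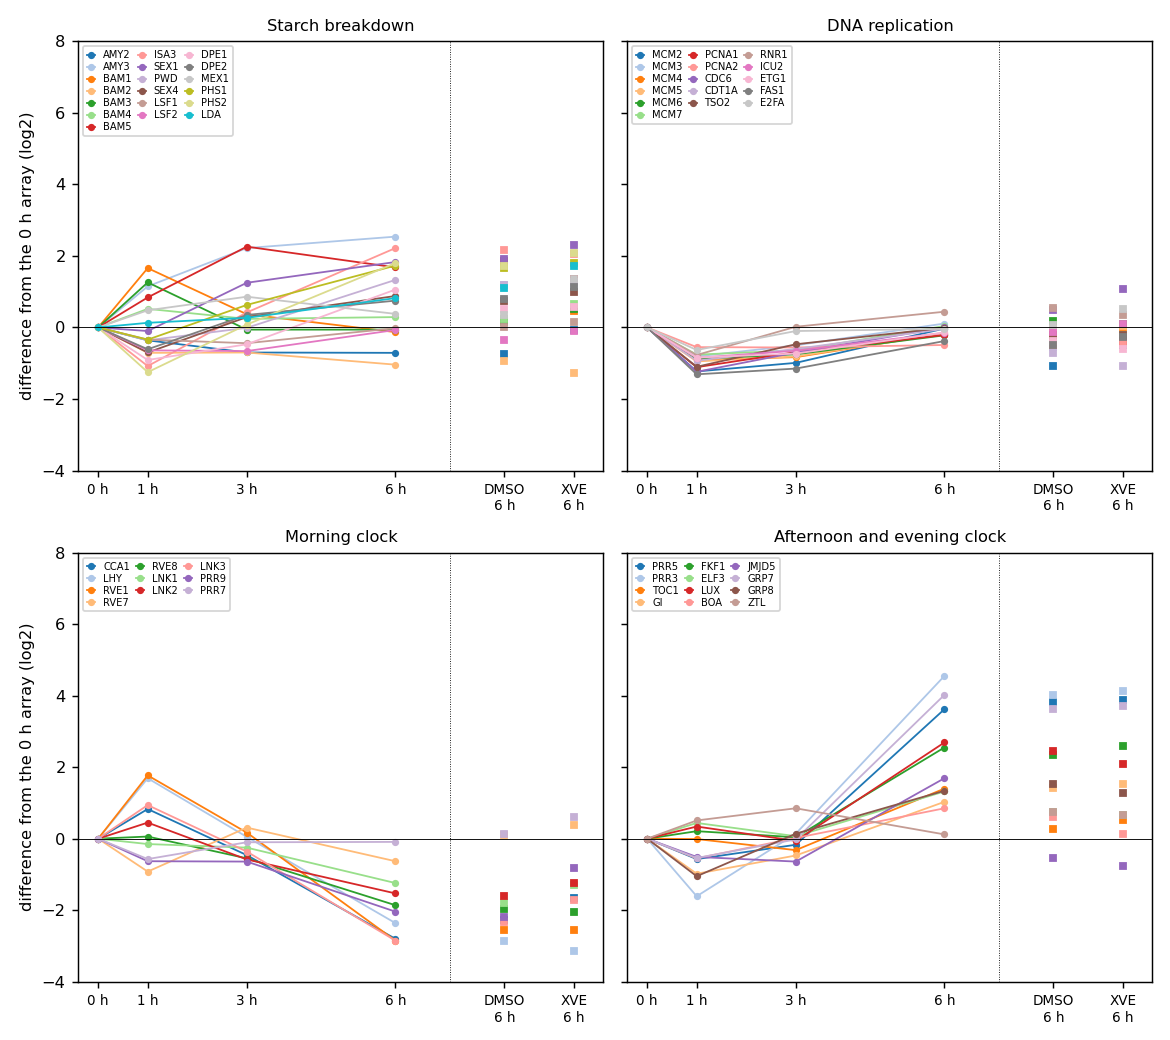
Difference from the 0 h array (log2, vertical axis) of each measured member of 4 gene lists at 0, 1, 3 and 6 h of estradiol (circles joined by lines) and on the DMSO and XVE arrays at 6 h (squares, other slide); each colour is 1 gene and every point is 1 array. AMY3 and BAM5 lie highest among the starch genes at 3 h (2.22 and 2.26), 15 of 16 replication genes lie below 0, and the clock genes lie within 2-fold of 0 h at 3 h.

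The 984 lower genes were tied to the number of probes and to brightness. Of 13998 genes read by 1 probe 2.6% were higher and 6.52% lower, and of 5291 read by several probes 1.29% and 1.36%. Among genes with a mean level of 5 or more on the 2 arrays, 88 of 158 read by 1 probe (55.7%) were at least 2-fold lower, with a median of -1.08, against 1 of 23 read by several (4.3%), with a median of -0.09. For those 158 the median difference from 0 h was -0.66 at 1 h, -0.35 at 6 h, -0.18 with DMSO and 0.12 with XVE alone. At the dim end, 195 of the 984 lower genes (19.8%) had a 3 h level under -4.35, as had 491 of all 19289 genes (2.55%). That was the lowest level counted as well above background at 0 h, and the brighter 3 h array could still measure below it. A measured gene under it at 3 h can by the filter only lie below its 0 h level. The difference also followed position: the median over 16 bands of rows ran from -0.28 to 0.22. Of 140 genes at least 2-fold apart and read by several probes, all probes had the same direction in 134 and all were 2-fold apart in 51.

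**Figure D5:**
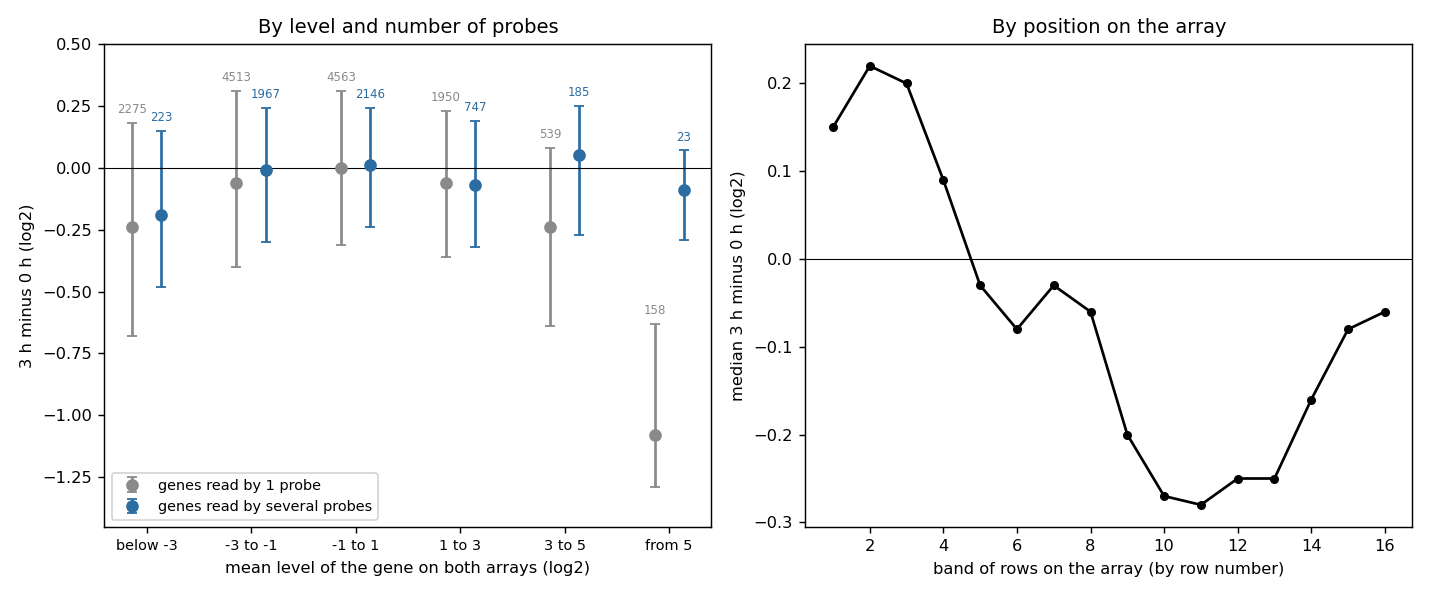
Left, median difference between 3 h and 0 h (log2, points) with its quartiles (bars) by the mean level of the gene on the 2 arrays, for genes read by 1 probe (grey) and by several (blue), with the number of genes above each bar. Right, median difference over the probes of each of 16 bands of rows of the array. The 158 brightest genes read by 1 probe have a median of -1.08, and the bands run from -0.28 to 0.22.

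The 20 genes farthest below 0 h were all read by 1 probe, and 16 of them had 3 h levels under -4.35, where a measured gene can only lie below its 0 h level. CSLG2, a cellulose synthase-like gene, was at -1.06, -4.09, -4.97 and -4.01 at 0, 1, 3 and 6 h, and at -4.10 with DMSO, so the 0 h array alone was high. ESE1, an ethylene- and salt-responsive ERF gene, was at -2.07 and -5.44, and PP2-B7, a phloem protein gene, at -2.29 and -5.43. AT2G14160 was the brightest of the 20 at 3 h, with 1.40, -1.0, -1.33 and 0.08 at 0, 1, 3 and 6 h, 3.16 with XVE alone and 2.73 with DMSO. The others were AT2G27540, AT4G11590, CHAL, AT3G23190, Tic20-IV, AT2G37950, AT1G06923, AT2G16505, KCS14, AT2G31210, AT2G16290, SETH6, AT2G02720, EXO70H6, HEC2 and AT3G56180, from -3.08 to -2.43. Of genes dim at 3 h, the 5 largest bounds were at least 14-fold for MYB11, a regulator of flavonol genes, 13-fold for LBD28, 12-fold for AT1G26798, 11.4-fold for AT4G26730 and 11.3-fold for AT1G61270. MYB11 was at -1.94 at 0 h, and its values on the other arrays were all at -6.41 or lower. Its values at 6 h (-7.46), with XVE alone (-6.41) and with DMSO (-6.89) were the same in LBD28, AT1G26798 and AT4G26730. They lay under the levels counted as well above background and do not give a measured level. These genes, each read by 1 probe, were likewise bright at 0 h only.

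Early touch and wound genes were lower in 3 of 19 cases (5.1% of all genes) and at least 2-fold higher in none, with a median of 0.07, and 1 of the 3 stayed 2-fold lower under every alternative. ERF5 was at -0.19, -1.32, -1.88 and -1.57 at 0, 1, 3 and 6 h, and at 0.02 with XVE alone and -0.85 with DMSO. ERF6, its relative, was at -0.50 and -2.0, a difference of -1.50 that was -0.79 with the brightest of its 2 probes. ZAT6 was at 7.95 and 6.74 by 1 probe, among the brightest genes described above, and at -0.42 after quantile scaling. The touch genes TCH2 (0.21) and TCH4 (-0.13), and ZAT10 (0.29), ZAT12 (-0.07), WRKY40 (0.07) and WRKY33 (0.13) stayed within 2-fold.

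Flowering and floral organ genes were lower in 2 of 10 cases (5.1% of all genes), and of these AGL24 but not SEP3 stayed 2-fold lower under every alternative. AGL24 was at 3.13, 1.72, 1.70 and 2.02 at 0, 1, 3 and 6 h. SEP3 was at 7.24 and 5.89 by 1 probe of the brightest class, and at -0.57 after quantile scaling. CRC, a YABBY factor of carpels and nectaries, was at -1.95, -0.94, -1.21 and 0.35 at 0, 1, 3 and 6 h, a difference of 0.74 at 3 h. LFY and SEP2 were not measured on both arrays. The remaining lower members of the lists were the cytokinin oxidase genes CKX5 (-1.43) and CKX3 (-1.02), the expansin genes EXPA8 (-1.32) and EXPA1 (-1.22), HSFB2A (-1.29), the guard cell channel gene KAT1 (-1.12) and the root hair gene COBL9 (-1.37). CKX3 was at -0.99 after quantile scaling. The 3 h level of CKX5, -5.0, lay under the lowest counted as well above background at 0 h, -4.35.

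Clock genes stood near their 0 h levels. Of 10 measured morning genes and 12 afternoon and evening genes none was 2-fold apart, with medians of -0.30 and 0.00. At 6 h of estradiol the medians against the same 0 h array were -1.95 and 1.54. They were -2.08 and 1.47 with DMSO and -1.49 and 1.41 with XVE alone. LHY was at 1.17, 2.86, 1.22 and -1.19 at 0, 1, 3 and 6 h. PRR5 was at -2.09, -2.66, -2.26 and 1.53 in the same order. The labels give no clock time for any harvest. The 26 photosynthesis genes had a median of -0.04 and ranged from -0.61 (RBCS1B) to 0.52 (LHCA2). That median was 0.34 after quantile scaling and 0.23 after cyclic loess. The flavonoid genes had a median of 0.05, with none of 11 at 2-fold and CHS at 1.19 and 1.74. At 6 h the flavonoid median against the same 0 h array was -1.02 with estradiol, -1.37 with DMSO and -2.0 with XVE alone. The 10 reference genes ranged from -0.38 (GAPC1) to 0.61 (UBC21), with a median of 0.13, and UBQ10, read by 11 probes, was at 2.62 and 2.85.

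Few genes were highest at 3 h by 2-fold. Among 18552 genes well above background on all 4 arrays of the time course, 1 (0.00539%) was at least 2-fold higher at 3 h than at each of 0, 1 and 6 h and 33 (0.178%) were lower. The lowest level counted as well above background at 3 h, -5.75, was below those of 0, 1 and 6 h. Some of the 33 could therefore by the filter only be lowest at 3 h. At 1 h the same rule gave 456 genes higher (2.46%) and 153 lower (0.825%), at 6 h 137 (0.738%) and 83 (0.447%), and at 0 h 122 (0.658%) and 133 (0.717%). The 1 gene was BETA-VPE, a vacuolar processing protease gene, at -2.12, -2.37, -1.03 and -2.85 at 0, 1, 3 and 6 h. No gene passed with the normexp correction or without the detrending surface. The next were WRKY8 (smallest difference 0.99), AT1G63850 (0.97), AT1G14580 (0.96), CYP710A2, a sterol desaturase gene (0.95), ARGAH2 (0.93), AT2G24990 (0.88), AT5G01790 (0.87), MES9 (0.87) and AT1G23970 (0.85). WRKY8 was at -1.41, -1.07, -0.08 and -1.26 in the order of time, and at -0.39 with XVE alone and -0.13 with DMSO.

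Lowest at 3 h were AT5G17100 (smallest difference -2.05) and PUB24 (-1.90). PUB24, a U-box ubiquitin ligase gene of immune responses, was at -0.69, -0.76, -2.66 and 0.39 at 0, 1, 3 and 6 h, and at 1.98 with XVE alone and -0.53 with DMSO. AT5G46310 was at -1.28, -1.99, -3.63 and 0.07 in the order of time, and at 0.78 with XVE alone and -3.25 with DMSO. AT5G40400 was at 0.53, 0.34, -1.18 and 1.33, and at 2.41 and -0.46 on the same controls. In these 3 genes the XVE array was the highest of the 6. AT2G31210 (-1.56), AT1G66640 (-1.49), AT3G19550 (-1.44), AT5G15140 (-1.38), AT1G50580 (-1.28) and ALMT6 (-1.25) followed, each read by 1 probe. AT1G50580 was at -0.90 with the normexp correction, ALMT6 at -0.87 after cyclic loess scaling and AT5G40400 at -0.57 without the filter on dim probes. At 3 h AT5G17100 (-5.54), ALMT6 (-5.51) and AT1G50580 (-5.45) lay under the lowest levels counted as well above background at 0, 1 and 6 h. Those were -4.35, -4.525 and -5.142, so by the filter these genes could only be lowest at 3 h. AT2G31210 (-5.09) and AT5G15140 (-4.51) lay under the 0 h value, so by the filter they could only be below 0 h.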

How the data were processed

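RNA of 6 pooled samples was hybridised to 1-colour arrays, 1 array a group, on 2 slides. Per the file headers, the deposited intensity of a spot was background-subtracted and detrended by Agilent Feature Extraction (version 10.5.1.1, per the submitters' processing notes), and on the 1 h and 3 h arrays also divided by a multiplicative surface. The authors' deposited table holds log2 values; set against the scanner files, 100.0% of them followed the log2 intensity less the array's 75th percentile, within 0.01 of a constant, so scale, centring and direction are known. Column medians were -2.079, -2.116, -2.143 and -2.108 at 0, 1, 3 and 6 h, -2.136 for DMSO and -2.079 for XVE. The flags (other deposited values of 0 or 1) mark spots well above background. No spot was saturated.

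Probes were named by RefSeq accession through a TAIR10.1 gene table used for names only: 34285 matched 1 locus and 9318 none. Genes were averaged over the probes well above background on both arrays (on all 4 for the time course). No test was possible with 1 array a group; genes 2-fold apart were counted. A gene dim on 1 array is given as at least N-fold, its bright level against the higher of its dim level and the lowest level well above background there. Other arrays' values are set beside the 3 h ones and share the 0 h array. Genes named were the 20 farthest in each direction, the 10 farthest from all of 0, 1 and 6 h, the 5 largest bounds, up to 6 members with the largest differences in each of 36 lists and 19 families, any member of a short list, and AMY3, CRC and reference genes; further members of longer lists were named after their values were seen. The members, lists and tests were chosen with earlier results of these data known. The counting was tested on simulated data. A motif search in promoters was planned and not run. Alternatives were the scanner values, quantile and cyclic loess scaling (limma 3.58.1, R 4.3.3), normexp with an offset of 50 on median signals, no filter, a filter on all 6 arrays, and the brightest probe; the signal before the multiplicative surface and centring by 80 blocks of the array were added after seeing the data. Python 3.11.15 with pandas 2.3.3, NumPy 2.4.6 and matplotlib 3.10.9 did the rest. A result that the rule for named genes called for is not reported here.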

Additional observations from a re-analysis of the deposited data

Results flagged for a closer look

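Over all genes measured, 7 were at least 2-fold from 0 h in opposite directions at 1 h and at 3 h. They were picked after their values were seen, each rests on 1 array a time point, both differences share the 0 h array, and whether they differ was not tested. BXL2, a β-xylosidase gene of the cell wall, stood at 0.86, 2.07, -0.52 and -0.69 at 0, 1, 3 and 6 h, a difference of -1.38 at 3 h. GDPD2, a glycerophosphodiesterase gene read by 2 probes, stood at -1.03, 0.10, -2.29 and -2.30 (-1.26 at 3 h). AT1G13930, read by 4 probes, was the only one lower at 1 h and higher at 3 h, at 2.45, 1.42, 3.54 and 4.11 (1.09 at 3 h). PUP7, a purine permease gene (-1.12), AT1G16670 (-1.08), AT2G36970 (-1.35) and AT5G38340 (-1.49) were higher at 1 h and lower at 3 h, each by 1 probe. The 3 h levels of PUP7 (-5.22) and AT5G38340 (-4.96) lay under the lowest level counted as well above background at 0 h, -4.35.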

How the results depend on the processing

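Leaving out the filter on dim probes gave 916 higher and 3911 lower genes, since dim spots then enter. With the normexp correction 178 were higher and 972 lower, 167 of the 432 higher genes (38.7%) and 794 of the 984 lower (80.7%) stayed, and the median of all genes was -0.18, a shift against which differences under that setting are to be read. After quantile scaling 432 and 738 of them stayed. Of the called genes 30.5% were higher; this share was 43.0% after quantile scaling (559 higher, 740 lower), 38.3% after cyclic loess (465 and 749), 15.5% with normexp, 19.0% without the filter and 37.5% with probes bright on all 6 arrays (429 and 714). The scanner values gave 429 and 987, the brightest probe 497 and 1139, no multiplicative detrending 387 and 923, and centring by position 330 and 904. Of the 432 higher and 984 lower genes, 141 (32.6%) and 516 (52.4%) stayed 2-fold under every alternative but the filter on all 6 arrays, where some are not measured. Higher than each of 0, 1 and 6 h were 0 genes with normexp, 45 without the filter, 3 with the brightest probe and 0 without multiplicative detrending, and lower than each were 271 without the filter. THI2.1 was at 0.50 without the filter, against -1.39. The cause of these differences was not tested beyond what the alternatives themselves change.

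All 20 genes farthest in each direction stayed 2-fold apart under the alternatives that measure them. The bounds were smaller with normexp, from 4.16 on the log2 scale for NATA1 to 2.90 for JOX3 among the higher genes. List medians ranged from 0.79 to 1.00 for the JAZ repressors, 0.71 to 0.85 for jasmonate synthesis, 1.32 to 1.48 for the water stress outputs, 0.28 to 2.24 for jasmonate turnover and 0.52 to 1.97 for the late outputs. No paired analysis was possible because each group has 1 array, and for the same reason no replicate could be left out. The promoter motifs that were planned were not searched. Signal over background limits the genes with levels under -4.35 at 0 h, for which only bounds are given.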

Other observations

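The shares of probes at least 2-fold higher ran from 0.89% to 6.48% over the 16 bands of rows of the array, and the shares at least 2-fold lower from 3.4% to 10.69%.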
